A study of Mus musculus with 4 samples.

Results

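The genes described here encode the proteins of the cytosolic ribosome, the particle that translates nearly all cellular mRNA outside mitochondria. They were taken by symbol: every gene of the deposited footprint table whose symbol begins with Rpl or Rps and a digit, with Rplp0, Rplp1, Rplp2 and Rpsa added. The ribosomal protein S6 kinases and Rps19bp1 (11 rows) and the symbols that contain "-ps", a mark used for pseudogenes (8 rows), were set aside. This gave 89 members of the 25169 genes with a passing status. There were 43 members of the large subunit, 31 of the small subunit, 3 of the stalk and 12 paralogs or retrogenes such as Rpl39l and Rps27l.

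Ribosome footprints were sequenced from E14, a mouse embryonic stem cell line labelled as wild type, in 4 libraries. The treated group was 2 libraries of cells kept in 1 µM PD, and the control group was 2 libraries of cells kept in DMSO, the solvent, both over 3 passages. Both groups grew on gelatin, in medium that held serum and the cytokine LIF, which keeps such cells from differentiating. The labels name the compound only as PD, all libraries come from 1 cell line, and nothing says whether the replicates were separate cultures, so p-values measure a spread that may be technical.

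A ribosome is built from a large subunit, which forms peptide bonds, and a small subunit, which decodes mRNA, each of ribosomal RNA and many proteins that are mostly needed in equal numbers. The mRNAs of these proteins usually begin with a C followed by a run of pyrimidines, the 5′ terminal oligopyrimidine (TOP) tract, through which mTOR signalling and Larp1 set how many ribosomes they carry. Ribosomal protein genes have left many processed copies, intronless pseudogenes made by reverse transcription, across the mouse genome. A footprint read is short and can match a gene and its copies equally well.

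To show the tract at the start of the messages, the first bases were read from RefSeq promoter sequences of GRCm38.p6, the same assembly as mm10. Of the 89 members, 68 had a sequence there. The windows below hold 10 bases before and 20 bases after the annotated start, 5′ to 3′ on the gene's strand, and capitals mark a C followed by an unbroken run of at least 4 pyrimidines, where one begins within 10 bases of the start. Only the match that begins nearest to the start is in capitals, so earlier pyrimidines of the same run and further matches, as in Rpl39, Rps18 and Rps27, stand in lower case. They were chosen for members on which the results turn: Rps6 and Rpl28, with footprint values under 1, Rps18, Rplp2 and Rpl4, with high values, Rps26, and paralogs beside the genes they resemble.
Rps6: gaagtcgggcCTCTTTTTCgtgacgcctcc
Rpl28: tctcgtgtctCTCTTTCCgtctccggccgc
Rps18: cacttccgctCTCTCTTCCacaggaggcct
Rplp2: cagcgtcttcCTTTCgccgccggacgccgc
Rpl4: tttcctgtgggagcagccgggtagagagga
Rps26: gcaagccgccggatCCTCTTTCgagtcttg
Rpl39: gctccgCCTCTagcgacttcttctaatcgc
Rpl39l: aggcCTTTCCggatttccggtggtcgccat
Rps27: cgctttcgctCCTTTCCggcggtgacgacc
Rps27rt: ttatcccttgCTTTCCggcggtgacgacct
Rpl32l: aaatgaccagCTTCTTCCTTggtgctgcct

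In Rps6 (chr4:86857348-86857377, minus strand), Rpl28 (chr7:4792955-4792984, plus strand), Rps18 (chr17:33955646-33955675, minus strand) and Rplp2 (chr7:141447641-141447670, plus strand) the capitals begin at the annotated start itself. In Rps26 (chr10:128626487-128626516, minus strand) the tract begins 4 bases after the start, and Rpl4 (chr9:64173377-64173406, plus strand) has none within 10 bases. Rpl39 (chrX:37085203-37085232, minus strand) and Rpl39l (chr16:10170218-10170247, plus strand) have their nearest match just before the start. Rps27 (chr3:90213629-90213658, minus strand) and its retrogene Rps27rt (chr9:114982720-114982749, minus strand) read alike from the tract on, with a shared run of 38 bases within their first 50 transcribed bases. The other paralog pairs compared shared at most 7. Rpl32l (chr10:20208429-20208458, plus strand) has a tract at its start.

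A C followed by 4 bases that are each C or T (16 words, sense strand only, overlaps counted once per gene) stood exactly at the annotated start in 13 of 57 members that are no paralogs, or 22.8%. Among protein-coding genes with a promoter sequence it did so in 467 of 17492, or 2.67%. Allowing any position within 10 bases of the start, 59.6% of these members and 34.9% of protein-coding genes held one. The share with the tract at the start was 23.8% for members with a mean of at least 10 FPKM and 22.2% for those below. A match describes the annotated sequence and not the start used in these cells.

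All values are FPKM as deposited, fragments scaled by transcript length and by library total. The scaling is meant to let levels of different genes be set side by side. It does not settle how reads that match several places were assigned. A footprint level follows both the amount of a gene's mRNA and the number of ribosomes on it, and with no matched RNA measurement used here the pair cannot be told apart. Nor can fewer cells and less signal per cell. Relative to DMSO replicate 1, library depth read from the steps of the values was 0.464 and 0.201 in the PD libraries, and 1 and 1.42 in the DMSO libraries. Members resting on few reads therefore have their widest error in PD. Embryonic stem cell markers were present, with 9 genes summing to 2582 and 4178 FPKM in PD and to 2478 and 2496 in DMSO. Dppa5a was the largest part of each sum, with 1421 and 3203 FPKM in PD and 1414 and 1633 in DMSO. Fibroblast markers (7 genes) summed to 2.36 and 3.44 FPKM in PD and to 1.85 and 2.14 in DMSO, with Postn and Lum at 0 in every library. Primitive endoderm markers (5 genes) summed to at most 1.02 FPKM, with Gata6 at 0, and trophectoderm markers (4 genes) to at most 0.574, with Cdx2 and Krt7 at 0.

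The members of 1 particle were listed at very unequal footprint levels. Of the 89, 16 averaged at least 100 FPKM across libraries, 21 lay between 10 and 100, 29 between 1 and 10, and 23 below 1. The median of the means was 3.71 FPKM. In all, 66 members (74.2%) reached 1 FPKM, against 8897 of 20802 protein-coding genes (42.8%). The 5 highest members of each library held 64.1% and 64.4% of the summed member FPKM in PD, and 60.5% and 64.6% in DMSO. The order was much the same in every library: across the 66 members, log2 values correlated at r = 0.903 between the PD libraries, 0.957 between the DMSO libraries and 0.904 to 0.933 between groups. These correlations run over genes, which are not replicates.

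**Figure D1:**
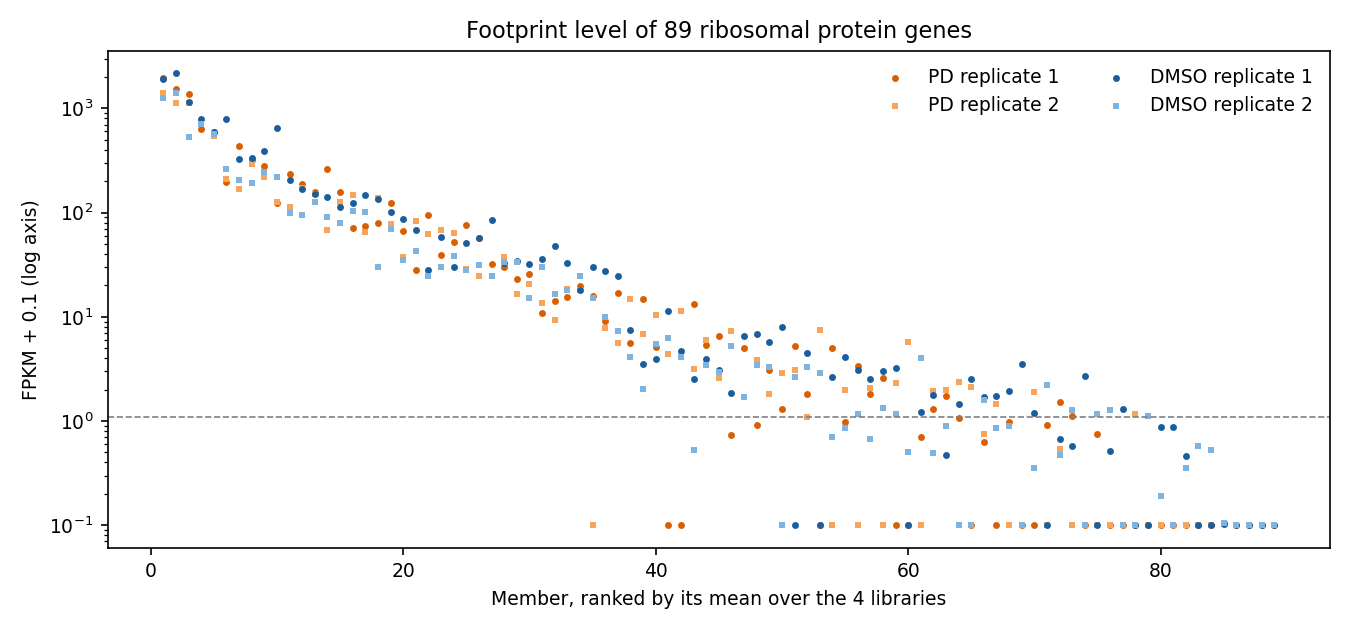
Footprint level of each of the 89 members in the 4 libraries, as FPKM + 0.1 on a log axis, ranked by the mean over libraries. Points are single libraries and the dashed line marks 1 FPKM, which 66 members reached. The 4 libraries scatter most below about 10 FPKM. Some high members also spread widely, such as Rps18 (195 to 786 FPKM) and Rps26 (125 to 645 FPKM).

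Rpl8, a large subunit protein next to the peptidyl transferase centre (chr15:76904071-76906318), was among the highest members and had 1528 and 1122 FPKM in PD, against 2168 and 1402 FPKM in DMSO. Rps19, which is mutated in many patients with Diamond-Blackfan anaemia (chr7:24884592-24889811), had 1379 and 1119 FPKM in PD, against 1152 and 532 FPKM in DMSO. For both the groups overlapped, with log2 differences of PD minus DMSO of -0.41 and 0.67. Rpl4, a large subunit protein that lines the exit tunnel (chr9:64173387-64178562), was among the most even members. It had 594 and 538 FPKM in PD, against 596 and 563 FPKM in DMSO (log2 difference -0.04, SE 0.26).

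At the lower end of the 66 members stood Rpl10a, Rpl3, Rpl17, Rpl24, Rpl27 and Rpl15, all large subunit proteins with means between 1.07 and 1.40 FPKM. Rpl3, whose product sits at the peptidyl transferase centre, had 1.21 and 1.85 FPKM in PD, against 1.68 and 0.395 FPKM in DMSO. Rpl27 was listed at 0 and 2.01 FPKM in PD and at 2.43 and 0 FPKM in DMSO. Rpl15, a core protein of the large subunit, had 0.533 and 0.654 FPKM in PD, against 1.61 and 1.48 FPKM in DMSO. Over the 4 libraries, the ranges of these 6 genes overlapped one another. Their products belong to the same particle as those of Rpl8 and Rpl4.

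The 23 members below 1 FPKM were not tested. Among them Rpl28, Rpl36 and Rps27rt were listed at 0 in every library. A further 19 were Rps2, Rpl31, Rps28, Rpl10, Rpl13, Rps15a, Rpl27a, Rpl35, Rps23rg1, Rpl9, Rpl19, Rpl11, Rpsa, Rpl21, Rpl3l, Rps6, Rps12, Rpl23a and Rpl26, with means between 0.00358 and 0.934 FPKM. Rps6, the S6 kinase substrate of the small subunit, was listed at 0 in both PD libraries and had 0.362 and 0.256 FPKM in DMSO. Rpsa, the laminin receptor precursor and a small subunit protein, was listed at 0 in both PD libraries and in DMSO replicate 1, and had 1.01 FPKM in DMSO replicate 2. Rpl11, which binds Mdm2 together with Rpl5 and the 5S ribosomal RNA, was listed at 0 in PD replicate 1, had 1.06 FPKM in PD replicate 2 and was listed at 0 in both DMSO libraries. Rpl3l is known as a form of striated muscle. Most of the others are needed by every dividing cell, and a 0 in this table is a listed value that need not be an absence of footprints.

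Members with many named processed copies were listed at lower levels. RefSeq names pseudogenes after their parent gene with "-ps", and counting them gives a lower bound, since many copies carry other names. Among the 77 members that are no paralogs, the 15 with no such copy had a median of 96.9 FPKM and the 32 with 1 to 3 copies had 5.56. The 30 members with 4 or more copies had a median of 0.909, and 16 of these 30 lay below 1 FPKM. Over the 77 members, Spearman's rho of mean level and copy count was -0.45, given as a description because all values come from the same libraries. Rpl31 and Rps12 had the most copies, 23 each, and means of 0.884 and 0.12 FPKM.

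The relation had exceptions at both ends. Rps19 has 13 named copies and a mean of 1046 FPKM, Rpl7a has 14 and 285 FPKM, and Rpl30 has 10 and 56.2 FPKM. In the other direction, Rpl11 and Rps28 have no copy of that name and means of 0.266 and 0.848 FPKM. The handling of reads that match several places was not stated for this table, and its part in these levels was not tested.

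**Figure D2:**
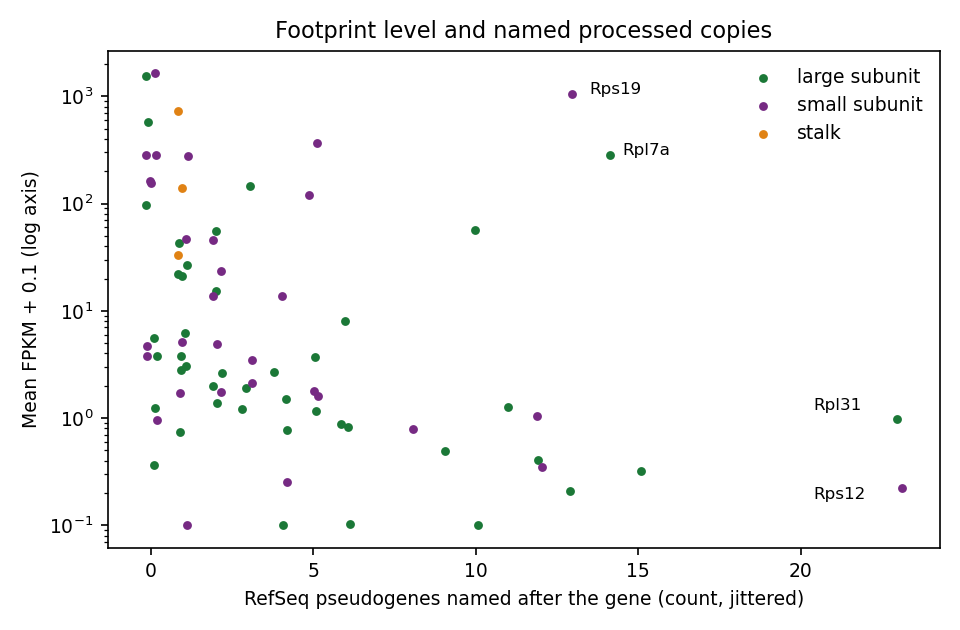
Mean footprint level of the 77 members that are no paralogs, as FPKM + 0.1 on a log axis, against the number of RefSeq pseudogenes named after each gene. Points are genes, jittered sideways and coloured by subunit; levels are spread widely at 0 copies and most genes with many copies lie low, with Rps19 and Rpl7a as high exceptions.

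For a single family, a copy was listed far above its parent. Rpl14-ps1, a transcribed pseudogene in the RefSeq table (chr7:45303155-45333780), had 309 and 385 FPKM in PD, against 285 and 398 FPKM in DMSO. Rpl14 itself, a large subunit protein gene on another chromosome (chr9:120571517-120574653), had 5.08 and 10.2 FPKM in PD, against 3.83 and 5.40 FPKM in DMSO. The other 7 rows marked "-ps" had means of at most 1.24 FPKM. By gene type, Rpl31-ps12 and Rpl34-ps1 among them were protein-coding and Rps18-ps4 a long noncoding RNA. The deposited locus of Rpl14-ps1 is far longer than a processed copy and can span neighbouring transcripts.

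Paralogs and retrogenes were often listed above the gene they resemble. Rps27l, a paralog of Rps27 that is induced by p53, had 71.1 and 146 FPKM in PD, against 124 and 103 FPKM in DMSO (chr9:66946086-66949522). Rps27 had 2.49 and 0 FPKM in PD, against 2.89 and 1.22 FPKM in DMSO. Rpl10l, an intronless retrogene best known from the male germ line, averaged 41.4 FPKM, and Rpl10, its X-linked parent, 0.789 FPKM. Rps4l, annotated as a transcribed pseudogene, averaged 93.2 FPKM, and Rps4x, the X-linked gene it derives from, 46.3 FPKM. Rpl32l averaged 94.99 FPKM and Rpl32 42.3 FPKM. The deposited loci of Rps4l (chr6:148047416-148444352) and Rpl32l (chr10:20148920-20281590) are also far longer than a processed copy. They can span neighbouring transcripts, so these levels may not belong to the paralogs alone. Rpl22l1 averaged 48.8 FPKM and Rpl22 26.7 FPKM.

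The opposite order held for Rpl7l1, whose product takes part in making the large subunit: it averaged 19.98 FPKM, and Rpl7 averaged 146 FPKM. Rpl3l averaged 0.193 FPKM and Rpl3 1.28 FPKM. Rps23rg1, a retrogene of Rps23, averaged 0.433 FPKM and Rps23 4.77 FPKM. Rps27rt was listed at 0 throughout. The table gives Rps27rt the locus of Rps27 on chromosome 3 while RefSeq places it on chromosome 9, so its values cannot be assigned to the retrogene. Where a pair is nearly identical in sequence, its reads can be divided in more than 1 way, and both levels are uncertain.

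**Figure D3:**
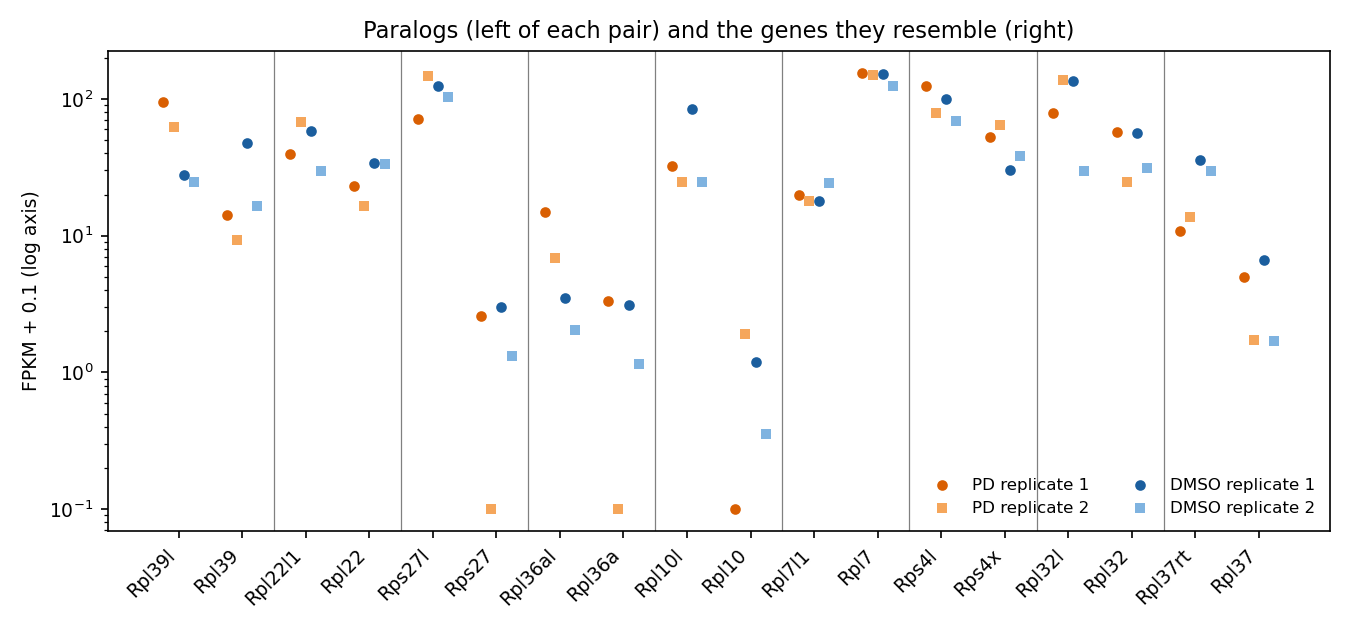
Footprint level, as FPKM + 0.1 on a log axis, of paralogs and retrogenes and of the genes they resemble, each paralog left of its counterpart, with 1 point per library. Rps27l and Rpl10l stand far above Rps27 and Rpl10, and Rpl7l1 stands below Rpl7.

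No member differed between PD and DMSO by the test across all genes. Differences were fitted with limma on log2(FPKM + 1) over the 9741 genes averaging 1 FPKM or more, and PD minus DMSO is given on that scale, which understates changes of low genes. None of the 66 members passed a limma adjusted p of 0.05 in either direction, and the smallest limma adjusted p was 0.669, for Rpl37rt. Across all tested genes 0.0308% passed as higher in PD and 0.226% as lower. None of the 8897 protein-coding genes among them passed, with a smallest limma adjusted p of 0.123, so the members did not stand apart in this. At an unadjusted p under 0.05 there were 7 members, 10.6% of the 66, against 5.76% of all tested genes. The members' median difference was -0.07 and their mean -0.09, with 31 above 0 and 35 below, and the median of all tested genes was -0.02.

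Both PD values lay above both DMSO values for 9 members and below them for 12, and the groups overlapped for the other 45. Thus 31.8% of the members did not overlap, against 35.8% of all tested genes, of which 17.5% were higher in PD and 18.3% lower. The members' share was close to that background. Large subunit members numbered 2 above and 7 below among 30, with a median difference of -0.15. Small subunit members numbered 5 above and 4 below among 24, with a median of 0.07. The 3 stalk proteins all overlapped, and the 9 tested paralogs numbered 2 above and 1 below.

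Among members with a mean of at least 10 FPKM, 10 of 12 large subunit genes had a difference below 0 (median -0.28), against 5 of 14 small subunit genes (median 0.14). This contrast was picked out after its values were seen, and it rested on single libraries. Without DMSO replicate 1 the counts were 6 of 12 and 3 of 14, and without DMSO replicate 2 they were 11 and 10. Without PD replicate 1 they were 10 and 9, and without PD replicate 2 they were 7 and 4.

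**Figure D4:**
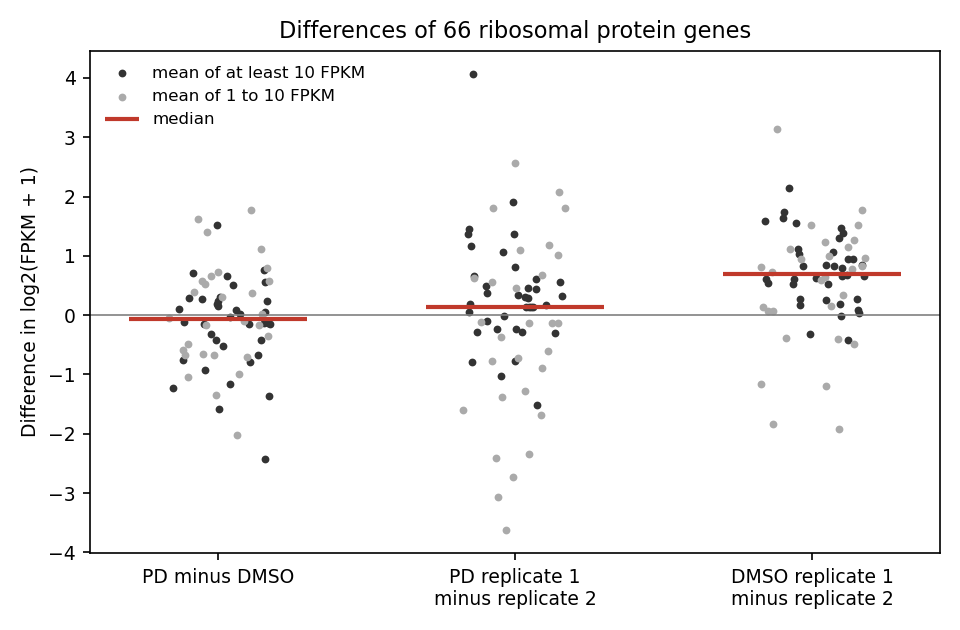
Differences in log2(FPKM + 1) of the 66 tested members: PD minus DMSO, and replicate 1 minus replicate 2 within each group. Points are genes, dark for a mean of at least 10 FPKM, and red bars are medians; the DMSO replicate difference has a median of 0.70, larger than that of PD minus DMSO, at -0.07.

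Among the members with a mean of at least 10 FPKM, Rpl39l, Rps4x and Rps14 had both PD values above both DMSO values. Rpl39l, a paralog of Rpl39 best known from the male germ line (chr16:10170228-10174911), stood furthest apart. It had 94.9 and 62.2 FPKM in PD, against 27.9 and 24.5 FPKM in DMSO. The groups were well separated and the DMSO libraries close together, with a log2 difference of 1.52, an SE of 0.31 and a limma adjusted p of 0.687. It rested on 123 and 35 recovered reads in PD, and on 78 and 97 in DMSO. The authors' lower confidence bounds in PD were 50.2 and 30.6 FPKM, and their upper bounds in DMSO were 45.2 and 40.3, so PD replicate 2 overlapped DMSO by its bounds.

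Rpl39, the gene Rpl39l resembles and a protein of the exit tunnel (chrX:37082518-37085222), lay the other way. It had 14.01 and 9.22 FPKM in PD, against 47.3 and 16.4 FPKM in DMSO. The groups did not overlap, but the DMSO libraries differed from each other more than DMSO replicate 2 did from PD, and the difference of -1.23 had an SE of 0.58 (limma adjusted p = 0.837). It rested on 7 and 2 recovered reads in PD, and on 51 and 25 in DMSO. The difference between these differences was not tested.

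Rps4x, an X-linked small subunit protein (chrX:102184941-102189391), had 52.6 and 64.0 FPKM in PD, against 30.3 and 38.2 FPKM in DMSO (log2 difference 0.75). Its DMSO replicate 1 was the lower of the pair, unlike most members. Rps14, a small subunit protein whose gene lies in the region lost in human 5q- syndrome, had 188 and 171 FPKM in PD, against 167 and 94.0 FPKM in DMSO (0.51). The gap between the nearest values of the groups was small for Rps14.

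On the other side were 7 members. Rps26, a small subunit protein at the mRNA exit (chr10:128624529-128626506), had 125 and 126 FPKM in PD, against 645 and 218 FPKM in DMSO. On the log2 scale PD minus DMSO was -1.57 (SE 0.58, limma adjusted p = 0.837), and the 2 DMSO libraries alone were 1.56 apart. It rested on 66 and 29 recovered reads in PD, and on 737 and 353 in DMSO. Rps18, a small subunit head protein (chr17:33951999-33955641), behaved alike, with 195 and 209 FPKM in PD, against 786 and 262 FPKM in DMSO (-1.16). For both genes the PD libraries were nearly equal and DMSO replicate 1 stood far above the other 3. Rps16, another protein of the small subunit head, had 9.01 and 7.78 FPKM in PD, against 27.7 and 9.95 FPKM in DMSO (-0.92). Its PD values rested on 8 and 3 recovered reads.

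Rpl37rt, a retrotransposed copy of Rpl37 (chr5:115102922-115110268), had 10.8 and 13.5 FPKM in PD, against 35.9 and 29.8 FPKM in DMSO. Here both groups were tight, and the difference of -1.37 had an SE of 0.27, the smallest p among the members (limma adjusted p = 0.669). It rested on 11 and 6 recovered reads in PD, and on 79 and 93 in DMSO. The authors' upper confidence bounds in PD were 21.2 and 25.6 FPKM, and their lower bounds in DMSO were 13.8 and 10.4, so the groups overlapped by their bounds. Rpl6, a large subunit protein (chr5:121204501-121209241), had 74.2 and 65.5 FPKM in PD, against 147 and 100.8 FPKM in DMSO (-0.80). Rpl22, which also binds mRNAs outside the ribosome (chr4:152324436-152334082), had 22.9 and 16.5 FPKM in PD, against 34.2 and 33.1 FPKM in DMSO (-0.76). Its DMSO libraries differed by only 0.04 on the log2 scale.

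**Figure D5:**
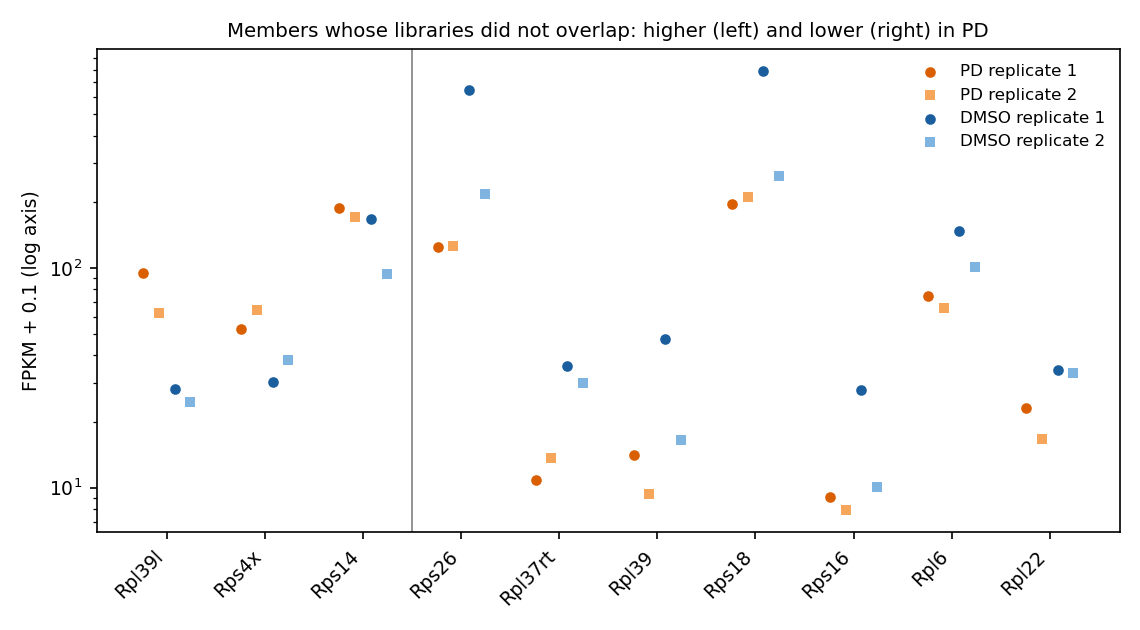
Footprint level, as FPKM + 0.1 on a log axis, of members with a mean of at least 10 FPKM whose libraries did not overlap between groups, with 1 point per library. The 3 genes left of the line have both PD values above both DMSO values and the 7 right of it have both below; in Rps26, Rps18, Rpl39 and Rps16 DMSO replicate 1 stands alone at the top.

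Other members without overlap had means between 1 and 10 FPKM. Rps23 (1.77), Rpl36al (1.62), Rpl34 (1.40), Rpl17 (0.80) and Rps20 (0.53) lay above DMSO on the log2 scale. Rpl41 (-2.02), Rpl10a (-1.35), Rpl15 (-0.68) and Rps27a (-0.67) lay below it. Rpl10a and Rpl15 averaged 0.303 and 0.593 FPKM in PD, so they passed the filter of 1 FPKM only through DMSO. Rpl17 averaged 0.587 FPKM in DMSO and passed only through PD. The directions of these genes are tied to how they passed. Rpl36al, which differs little from Rpl36a in sequence, had 14.8 and 6.79 FPKM in PD, against 3.42 and 1.93 FPKM in DMSO, on 10 and 2 reads in PD and 5 and 4 in DMSO. Rps23 rested on 10 and 1 recovered reads in PD and 4 and 1 in DMSO. For Rpl17 they were 2 and 1 in PD and 1 and 3 in DMSO. The row Rpl34-ps1 has the same deposited locus as Rpl34 and was listed at 0 in every library. Rpl41, the shortest ribosomal protein, was listed at 0 and had 4.33 FPKM in PD, against 11.3 and 6.16 FPKM in DMSO.

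The stalk, which recruits the elongation factors to the large subunit, had group differences smaller than their SEs. Rplp0, the stalk base (chr5:115559467-115563729), was among the steadiest members, with 30.2 and 37.0 FPKM in PD, against 32.8 and 33.2 FPKM in DMSO (log2 difference 0.02, SE 0.25). Rplp1, which binds it as a dimer with Rplp2, had 260 and 68.4 FPKM in PD, against 140 and 91.5 FPKM in DMSO (0.24, SE 0.72). Its PD values spanned both DMSO values. Rplp2 had 639 and 748 FPKM in PD, against 797 and 710 FPKM in DMSO (-0.12, SE 0.28). The 3 proteins stand in a fixed ratio in the ribosome, with Rplp1 and Rplp2 in excess of Rplp0, and the mean of Rplp2, at 724 FPKM, lay well above those of Rplp1 (140) and Rplp0 (33.3).

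Members known for roles outside protein synthesis or in disease were as mixed. Rpl5, the partner of Rpl11 in binding Mdm2, had 0.888 and 1.88 FPKM in PD, against 4.01 and 0.755 FPKM in DMSO. Rps3, a small subunit protein with a role in DNA repair, had 277 and 220 FPKM in PD, against 388 and 244 FPKM in DMSO (-0.31). Rpl13a, part of an inhibitor of translation in interferon-treated human monocytic cells, had 15.3 and 18.2 FPKM in PD, against 33.0 and 17.9 FPKM in DMSO (-0.52). In all 3 the groups overlapped. Rps27a, which is made as a fusion with ubiquitin, had 3.01 and 1.73 FPKM in PD, against 5.58 and 3.20 FPKM in DMSO (-0.67). Rpl38, needed for Hox mRNA translation and axial patterning in mice, had 15.8 FPKM in PD replicate 1 and was listed at 0 in PD replicate 2, against 29.7 and 14.9 FPKM in DMSO. Its difference of -2.43 had an SE of 1.43. It was -0.39 without PD replicate 2 and -4.47 without PD replicate 1, and ran from -4.07 with a pseudocount of 0.1 to -1.37 with one of 5.

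The members separated the DMSO replicates more than they separated PD from DMSO. DMSO replicate 1 was above DMSO replicate 2 for 56 of the 66 members (84.8%), with a median difference of 0.70 on the log2 scale. Among all tested protein-coding genes 51.1% were higher in DMSO replicate 1, with a median of 0.01. For the 37 members with a mean of at least 10 FPKM the count was 34 (91.9%), against 56.8% of protein-coding genes at that level. The difference between the PD replicates leaned less to 1 side, with replicate 1 above replicate 2 for 37 of 66 members and a median of 0.14. Gene by gene, the PD replicates agreed less well than the DMSO replicates (r = 0.903 against 0.957 over the 66 members). For the 37 members with a mean of at least 10 FPKM the PD count was 26 (70.3%, median 0.29). It was 54.0% of protein-coding genes at that level. The group difference was larger than the DMSO replicate difference for 23 members (34.8%), against 45.6% of all tested genes. With 1 library on each side there is no test of this shift, and its cause was not tested.

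The shift was uneven between members. It was 2.14 for Rpl32l, 1.74 for Rpl10l, 1.64 for Rps10, 1.58 for Rps18 and 1.56 for Rps26. It was close to 0 for Rpl4 (0.08), Rpl22 (0.04) and Rplp0 (-0.02), and lay below 0 for Rps4x (-0.33) and Rpl7l1 (-0.42). Rps26, Rps18, Rpl39 and Rps16, which are among the members lower in PD by their libraries, all had shifts of at least 1.39. The median level of the 66 members was 15.5 and 14.2 FPKM in PD, and 28.8 and 15.8 FPKM in DMSO, so DMSO replicate 1 stood apart from the other 3 libraries. Without DMSO replicate 1 the members' median difference was 0.38, and without DMSO replicate 2 it was -0.36.

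The share of protein-coding FPKM that fell on members gave the same picture. It was 3.55% and 2.82% in PD, and 4.18% and 2.68% in DMSO, summed over 65 members annotated as protein-coding. The means were 3.18% ± 0.515 in PD and 3.43% ± 1.06 in DMSO (SD, n = 2 each). The difference of -0.249 percentage points was smaller than either SD, with p = 1 in an exact two-sided permutation test whose smallest possible p is 0.333 with 2 against 2. It was 0.502 without DMSO replicate 1.

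Genes around the ribosomal proteins were no more uniform. The lists were TOP mRNAs for other proteins of translation, chaperones and assembly factors that guard ribosomal proteins and build the subunits, and kinases and regulators of TOP translation. None of their 25, 29 and 18 tested genes passed, and none of the 8897 protein-coding genes tested did. The median log2 differences were 0.04, -0.13 and -0.03. Of the 25 TOP mRNAs, 4 had both PD values above both DMSO values and 5 had both below. Thus 36.0% did not overlap, against 35.8% of all tested genes. Rack1, a scaffold protein of the small subunit, had 1515 and 1387 FPKM in PD, against 1287 and 1182 FPKM in DMSO (0.23). Cct4, a subunit of the TRiC chaperonin, had 469 and 534 FPKM in PD, against 334 and 394 FPKM in DMSO (0.46). Naca, of the nascent polypeptide-associated complex, had 12.7 and 9.36 FPKM in PD, against 29.9 and 15.6 FPKM in DMSO (-0.93), and Hnrnpa1, a splicing regulator, had a difference of -0.68.

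Of the 29 assembly genes 5 lay above and 5 below, or 34.5% without overlap, against 35.8% of all tested genes. Pno1, an assembly factor of the small subunit, had 265 and 212 FPKM in PD, against 188 and 137 FPKM in DMSO (0.56), and Bysl, which acts on the same particle, had a difference of 0.49. Pdcd2l (-0.80) and Zfp622 (-0.68), a late factor of the large subunit, lay the other way. Of the 18 kinases and regulators, Rps6kc1 (0.71) lay above, and 3 lay below, among them Rps6ka5 (-0.73) and Mtor (-0.34). This was 22.2% without overlap, below the share of all tested genes. Mtor, the kinase that controls TOP mRNAs, had 5.55 and 5.24 FPKM in PD, against 7.90 and 6.397 FPKM in DMSO. DMSO replicate 1 was above DMSO replicate 2 for 19 of the 25 TOP mRNAs, 23 of the 29 assembly genes and 8 of the 18 regulators.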

How the data were processed

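The authors deposited 1 table of FPKM values with confidence bounds for 25170 genes. Trimmomatic, FastQC, STAR, Bowtie2 and Cufflinks were used with mm10, per the submitters' processing notes. Their versions and roles, and the handling of reads with several matches, are not given in the sources used here. The gene with a failed status was left out. Of the symbols, 24975 were found in RefSeq (GRCm38.p6), which gave gene types and sequences, and 1 was added to the table's starts. log2(FPKM + 1) was fitted with limma 3.58.1 (R 4.3.3, eBayes with a variance trend, Benjamini-Hochberg) for genes averaging 1 FPKM or more, a test also run on simulated data. Relative depth and reads were recovered where a gene's 4 values were whole multiples of library steps (tolerance 0.02), for 40 of the 54 members above 0 in all 4 libraries. The smallest fitting numbers are given, which cover counting error only. Pseudocounts, filters, scalings, the variance model, a replicate block and leaving out each library were alternatives. Members, lists and the rule for named genes (the largest non-overlapping differences, extremes of level, stalk, paralogs, known roles) were chosen with earlier results of these data known. Members named outside that rule, such as Rps10, Rpl7a, Rpl30, Rpl14, Rpl32, Rps20 and Rpl41, were chosen after their values were seen. Some members count in totals but are not reported here. No explanation of a difference was tested.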

Additional observations from a re-analysis of the deposited data

How the results depend on the processing

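No member passed under any alternative. With a filter of 5 FPKM, 5 of 41 members lay above DMSO without overlap and 8 below. Leaving out 1 library at a time gave 10 to 28 members above and 13 to 31 below without overlap. Dropping a library can only add genes without overlap, so these counts cannot be set beside the shares for 2 against 2. The share over all tested genes was not computed for these settings or for the 5 FPKM filter. Leaving out 1 library also gave a median of the members of -0.36 to 0.38. The difference in the share of protein-coding FPKM was then -1 to 0.50 percentage points (0.502 without DMSO replicate 1 and 0.115 without PD replicate 2). The median of the other TOP mRNAs was -0.13 to 0.20, that of the assembly factors -0.29 to 0.06 and that of the regulators -0.19 to -0.073, and quantile normalization gave -0.019 for the TOP mRNAs. Large subunit members below 0 numbered 6 to 11 of 12, and small subunit members 3 to 10 of 14, an alternative added after seeing the data. The sign turned for Rplp0 when rescaled to the protein-coding sum (-0.013). It also turned on leaving out 1 library for Rplp0 (-0.13 to 0.16), Rplp1 (-0.72 to 1.19), Rpl22l1 (-0.17 to 0.77), Rpl3 (-0.095 to 0.85), Rpl5 (-1.10 to 0.41), Rpl7l1 (-0.36 to 0.060), Rpl10l (-1.54 to 0.20), Rpl36a (-1.52 to 0.56), Rps3 (-0.65 to 0.020), Rps4l (-0.093 to 0.57), Rps27 (-1.56 to 0.25) and Rps27l (-0.65 to 0.38). The 43 members without a copy or paralog in the table had a median of -0.09. The replicate differences of the groups correlated at r = 0.0992 over 9741 genes. With many genes on few reads, this cannot settle whether the replicate numbers pair the libraries. With the replicate block 0 members passed and the median was -0.07. Causes were not tested. A depth of 0.201 in PD replicate 2 limits what can be seen for members below 10 FPKM.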
